A study of Homo sapiens with 2 samples.

Results

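The 7 genes ZEB1, ZEB2, SNAI1, SNAI2, TWIST1, TWIST2 and PRRX1 encode transcription factors of the epithelial-mesenchymal transition (EMT), and they were described across 5 human lung adenocarcinoma lines. They were taken by symbol from the 36601 genes of a joint matrix of RNA and chromatin accessibility. With them were taken the 13 of 187920 accessibility peaks inside or within 2000 bases of the span of a gene's annotated starts. The established lines are HCC827, H2228, H1975, H838 and A549; each was grown alone, frozen, and mixed with the others in equal parts for 1 multiome capture, so every barcode carries an RNA and an ATAC profile. Both libraries are titled as the 80% sample. Each line was cultured without replicates and each assay gave 1 library, so no test was made. Every interval below is a 95% counting interval that says nothing of how cultures of a line vary. Values are unique molecular identifiers (UMIs) or peak counts summed over a line's barcodes and scaled to that line's total as counts per 1000000 (CPM).

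EMT is the programme by which epithelial cells loosen their junctions and take on a migratory, mesenchymal form, and in lung carcinoma it is studied for its links to invasion and drug resistance. ZEB1 and ZEB2 are zinc finger and homeobox repressors, SNAI1 and SNAI2 are zinc finger repressors, TWIST1 and TWIST2 are basic helix-loop-helix factors, and PRRX1 is a paired-type homeobox factor. The ZEB and SNAI factors bind E-box motifs in promoters of epithelial genes such as CDH1 and CRB3. The miR-200 family of microRNAs targets ZEB1 and ZEB2 messages, and ZEB1 in turn represses the miR-200 genes, which is known as a double-negative loop.

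The mature miR-200 sequences are shown because they carry the link between an epithelial RNA measured here and the ZEB genes, and capitals mark the seed (bases 2 to 8). They were read from RefSeq on GRCh38.p14 and fall into a pair of seed groups, with AAUACUG in miR-200c-3p (chr12:6963742-6963764, plus strand) and miR-200b-3p (chr1:1167160-1167181, plus strand), and AACACUG in miR-141-3p (chr12:6964155-6964176, plus strand) and miR-200a-3p (chr1:1167916-1167937, plus strand). The microRNAs themselves were not measured by this assay. Only MIR200CHG, the host RNA of miR-200c and miR-141, has counts.
hsa-miR-200c-3p: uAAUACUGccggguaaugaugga
hsa-miR-200b-3p: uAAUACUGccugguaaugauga
hsa-miR-141-3p: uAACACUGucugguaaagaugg
hsa-miR-200a-3p: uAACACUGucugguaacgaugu

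The RefSeq promoter windows below run from 250 bases before to 50 bases after a gene's start on GRCh38.p14, and capitals mark the E-box CACCTG, read on both strands as CACCTG or CAGGTG. Of 35116 windows of this length, 20.6% held at least 1 such E-box, 0.635% at least 3 and 0.094% at least 5. The ZEB1 window (chr10:31318966-31319265, plus strand; 1 of 7 windows of the gene, of which 1 other held 1 and 5 held 0) held 3 and lies whole in the peak over the ZEB1 start, and the TWIST2 window (chr2:238847835-238848134, plus strand), shown because its peak was low in 1 line, held 0. The windows of MIR200CHG (chr12:6962995-6963294, plus strand) with 1 and of CRB3 (chr19:6464021-6464320, plus strand), a polarity gene, with 5 are shown as genes that ZEB1 is known to repress; they were chosen after their values were seen. The single windows of ZEB2 and PRRX1 held 0, and 4 of the 7 members had a window in the table used. A match describes the letters of a window and is not a bound site.
ZEB1 promoter: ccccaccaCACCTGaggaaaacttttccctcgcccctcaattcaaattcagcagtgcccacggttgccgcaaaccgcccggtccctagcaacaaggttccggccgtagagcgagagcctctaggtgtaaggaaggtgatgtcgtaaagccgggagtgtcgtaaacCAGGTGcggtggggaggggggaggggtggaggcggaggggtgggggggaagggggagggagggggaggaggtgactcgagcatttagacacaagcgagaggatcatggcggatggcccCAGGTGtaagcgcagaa
TWIST2 promoter: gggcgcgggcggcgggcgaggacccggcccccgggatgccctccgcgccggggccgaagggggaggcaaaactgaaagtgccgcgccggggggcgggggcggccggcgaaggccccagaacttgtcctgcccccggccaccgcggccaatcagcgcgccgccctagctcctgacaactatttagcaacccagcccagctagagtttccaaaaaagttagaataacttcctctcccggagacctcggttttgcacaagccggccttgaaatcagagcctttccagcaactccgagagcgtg
MIR200CHG promoter: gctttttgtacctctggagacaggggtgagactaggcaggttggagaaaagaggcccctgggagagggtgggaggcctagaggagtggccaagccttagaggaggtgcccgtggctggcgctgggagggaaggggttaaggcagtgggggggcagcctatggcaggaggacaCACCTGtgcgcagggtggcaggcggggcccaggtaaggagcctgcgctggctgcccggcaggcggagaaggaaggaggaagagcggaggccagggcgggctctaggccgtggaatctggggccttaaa
CRB3 promoter: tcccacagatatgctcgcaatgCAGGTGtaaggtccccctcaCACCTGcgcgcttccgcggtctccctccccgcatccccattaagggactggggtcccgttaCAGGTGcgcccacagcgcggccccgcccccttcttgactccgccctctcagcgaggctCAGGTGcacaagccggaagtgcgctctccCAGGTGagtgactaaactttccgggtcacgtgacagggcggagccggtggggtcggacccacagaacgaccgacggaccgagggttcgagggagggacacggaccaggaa

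The lines were told apart by marker genes, none of which is a member or a gene of the lists below. Of the 2741 barcodes that passed the filters, 1983 were assigned to a line, while 542 held markers of several lines and 216 held too few. The 681 barcodes of the A549-like line had the highest level of 7 of 7 further A549 genes, and the 268 of the HCC827-like line that of 5 of 6 HCC827 genes. The markers did not settle which of H838, H1975 and H2228 the other 3 lines are, so these are called by a leading gene: the S100A9 line (384 barcodes), the SLC30A8 line (477) and the DHRS2 line (173). Clusters were also made from accessibility, at the first resolution tried that gave 5, and were named by their marker UMIs. They put 1932 of the 1983 barcodes (97.4%) in the same line, a share that leaves out the 542 and 216 barcodes without a line. Totals ran from 3272857 UMIs in the DHRS2 line to 7986391 in the S100A9 line, and from 5055361 peak counts in the HCC827-like line to 20995172 in the A549-like line. Median mitochondrial shares were 8.93%, 14.1% and 9.41% in the S100A9, HCC827-like and DHRS2 lines, and 0.422% and 0.444% in the A549-like and SLC30A8 lines, so lines differ in this sign of RNA quality as well as in identity. The 7 further A549 genes summed to 4946 CPM in the A549-like line and to 1.29% to 2.43% of that in the other lines, which is at most an upper limit on RNA of that line counted under barcodes of the others, since some of these genes may be expressed there. Because RNA was summed over barcodes, fewer expressing cells and less RNA per cell cannot be told apart in a CPM value. Each line enters the mean that the other lines are compared with, so the comparisons share samples.

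ZEB1 (ENSG00000148516, annotated starts chr10:31319125-31321135) was highest in the SLC30A8 line and lowest in the HCC827-like line. It had 529 CPM (509 to 550) in the SLC30A8 line, 257 CPM (243 to 272) in the A549-like line, 208 CPM (192 to 224) in the DHRS2 line, 158 CPM (149 to 166) in the S100A9 line and 37.7 CPM (32.1 to 44.1) in the HCC827-like line. No 2 neighbours in this order overlapped in their counting intervals. The SLC30A8 line stood 2.06 times (1.92 to 2.21) above the next line, and 14.0 times above the HCC827-like line. Against the mean of the other 4 lines on the log2(CPM + 1) scale, ZEB1 had a ratio of 1.68 in the SLC30A8 line (529 CPM against a mean of 165) and of -2.90 in the HCC827-like line (37.7 CPM against a mean of 288). After each barcode was thinned to 5000 UMIs, 89.0% of SLC30A8 barcodes held a ZEB1 UMI (85.5% to 91.9%), against 12.2% of HCC827-like barcodes (8.42% to 17.0%), the lowest share of any line. Thinning left out 376 A549-like, 86 SLC30A8, 23 HCC827-like, 15 DHRS2 and 4 S100A9 barcodes with fewer UMIs. Unthinned shares were 93.5% at a median of 7703 UMIs in the SLC30A8 line and 30.6% at a median of 12834 UMIs in the HCC827-like line.

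ZEB2 (ENSG00000169554, annotated starts chr2:144430934-144520398), the paralogue of ZEB1, was lowest in the HCC827-like line and close in level in the 3 highest lines. It had 2.15 CPM (0.982 to 4.08; 9 UMIs) in the HCC827-like line, against 25.1 CPM (19.9 to 31.1) in the DHRS2 line, 49.0 CPM (42.8 to 55.9) in the A549-like line, 52.0 CPM (47.1 to 57.2) in the S100A9 line and 62.0 CPM (55.3 to 69.3) in the SLC30A8 line. The intervals of the SLC30A8 and S100A9 lines overlapped, as did those of the S100A9 and A549-like lines, while the DHRS2 and HCC827-like lines lay below all 3 and apart from each other. The log2 ratio of the HCC827-like line against the mean of the other lines was -3.93 (2.15 CPM against a mean of 47.0). The thinned share in the HCC827-like line was 1.22% (0.253% to 3.54%), against 23.8% in the SLC30A8 line, 19.0% in the A549-like line, 18.7% in the S100A9 line and 10.8% in the DHRS2 line. The lowest ZEB2 level was 3.47% of the highest.

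The SNAI genes were low in all 5 lines, and their highest level was in the DHRS2 line. SNAI1 (ENSG00000124216, start at chr20:49982980), the gene for Snail, had 11.6 CPM (8.22 to 15.9; 38 UMIs) in the DHRS2 line, 5.64 CPM (3.75 to 8.15; 28 UMIs) in the SLC30A8 line and 1.31 CPM, 0.955 CPM and 0.501 CPM in the A549-like, HCC827-like and S100A9 lines, whose intervals overlapped. The A549-like, HCC827-like and S100A9 values rest on 6, 4 and 4 UMIs. The DHRS2 line stood 2.06 times above the SLC30A8 line (1.23 to 3.49) and 2.02 log2 units above the mean of the other lines (11.6 CPM against 2.10). SNAI2 (ENSG00000019549, start at chr8:48921429), the gene for Slug, had 6.72 CPM (4.21 to 10.2; 22 UMIs) in the DHRS2 line, 4.26 CPM (2.95 to 5.95; 34 UMIs) in the S100A9 line and 3.34 CPM (1.83 to 5.61; 14 UMIs) in the HCC827-like line, and these intervals overlapped. It had 2 UMIs in the A549-like line and 0 in the SLC30A8 line, where a count of 0 was taken to allow 0.604 CPM. The DHRS2 value of 6.72 CPM was 11.1 times that limit, which leaves out the counting error of the DHRS2 value. The line with the most ZEB1, the SLC30A8 line, thus had no SNAI2 UMI, while the DHRS2 line had 208 CPM of ZEB1.

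TWIST2 and TWIST1 encode closely related helix-loop-helix factors. TWIST2 was lowest in the DHRS2 line and highest in the SLC30A8 line. TWIST2 (ENSG00000233608, annotated starts chr2:238848032-238848085) had 3.97 CPM (2.12 to 6.79; 13 UMIs) in the DHRS2 line, against 34.1 CPM (30.1 to 38.4) in the S100A9 line, 36.8 CPM (31.2 to 43.0) in the HCC827-like line, 53.0 CPM (46.5 to 60.0) in the A549-like line and 97.4 CPM (88.9 to 106) in the SLC30A8 line. The S100A9 and HCC827-like intervals overlapped, and the other neighbours did not. The log2 ratio was -3.50 in the DHRS2 line (3.97 CPM against a mean of 55.3) and 1.58 in the SLC30A8 line (97.4 CPM against a mean of 31.9). The 13 UMIs of the DHRS2 line came from 5 of 173 barcodes, a share of 2.89% (0.945% to 6.62%), with 5 in a single barcode. After thinning to 5000 UMIs, 0 of 158 barcodes held any, with an exact interval of up to 2.31%. With lines taken from accessibility clusters, which also hold barcodes with markers of several lines, the DHRS2 log2 ratio was -1.37.

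TWIST1 (ENSG00000122691, start at chr7:19117636) was barely detected. Of its 12 UMIs in assigned barcodes, 11 came from the A549-like line (2.40 CPM, 1.20 to 4.29) and 1 from the HCC827-like line. It was under the minimum of 20 UMIs and enters no count of 2-fold calls below. The other 3 lines had 0 UMIs, which allows up to 0.376 CPM in the S100A9 line, 0.604 CPM in the SLC30A8 line and 0.917 CPM in the DHRS2 line. The A549-like line was 10.0 times the HCC827-like line, with a counting interval of 1.46 to 432.

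PRRX1 (ENSG00000116132, annotated starts chr1:170663134-170664131) was the only member with its highest level in the S100A9 line. It had 7.51 CPM (5.73 to 9.67; 60 UMIs) there, 1.53 CPM (0.496 to 3.57; 5 UMIs) in the DHRS2 line, 0.436 CPM (2 UMIs) in the A549-like line and 0 UMIs in the SLC30A8 and HCC827-like lines. The S100A9 line stood 4.92 times above the DHRS2 line (1.99 to 15.7) and 2.51 log2 units above the mean of the other lines (7.51 CPM against 0.491). Of its 384 barcodes, 45 (11.7%, 8.68% to 15.4%) held a PRRX1 UMI. The share after thinning was 1.58% (0.582% to 3.40%) in the S100A9 line, against 0.633% in the DHRS2 line and 0 of 391 and 0 of 245 barcodes in the SLC30A8 and HCC827-like lines.

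**Figure D1:**
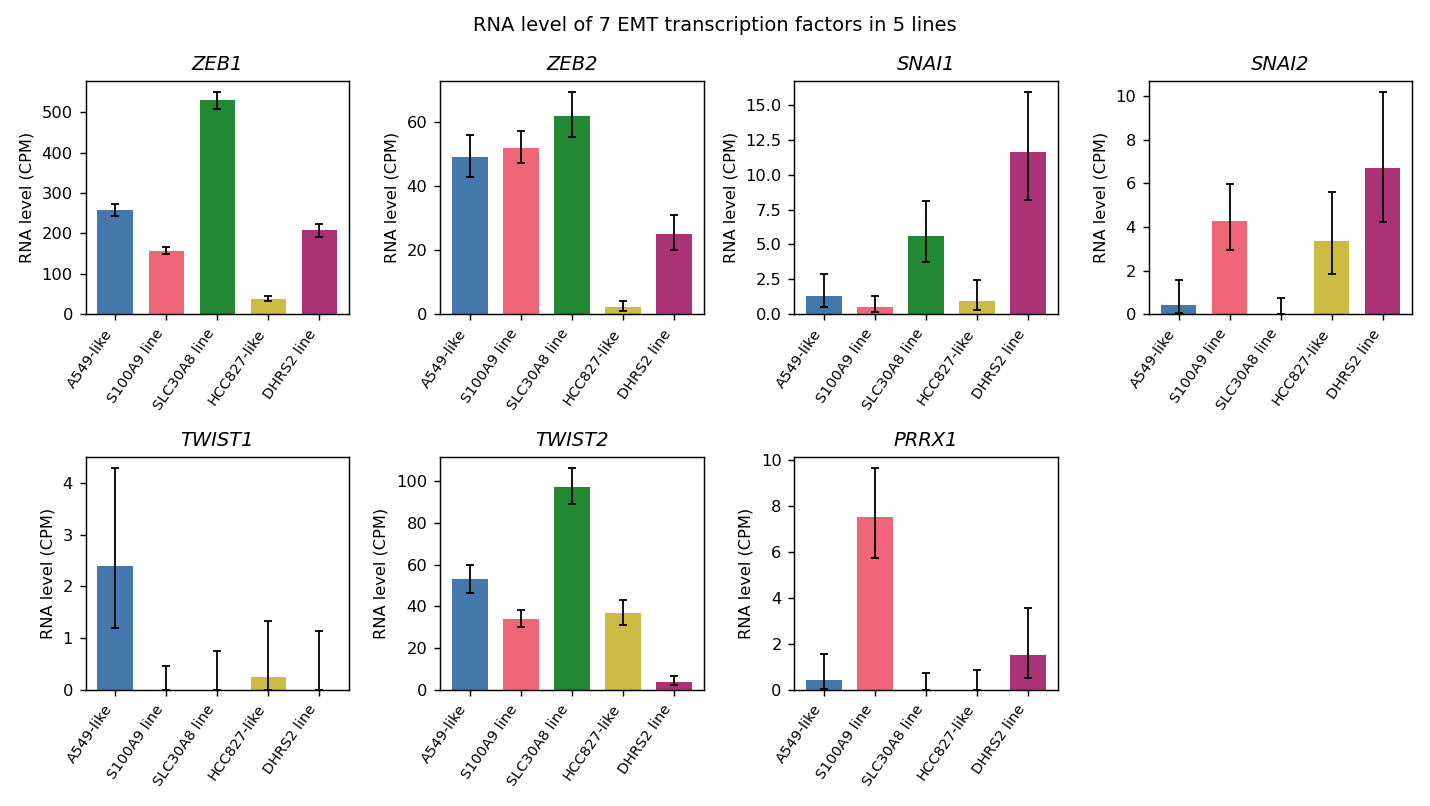
RNA level in CPM (bars) with 95% counting intervals (lines) of the 7 factors in the 5 lines. ZEB1 and TWIST2 are highest in the SLC30A8 line at 529 and 97.4 CPM, and ZEB2 is lowest in the HCC827-like line at 2.15 CPM.

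Of the 30 pairs of a measured member and a line, 5 were at least 2-fold higher than the mean of the other lines and 11 at least 2-fold lower. Over all 19224 measured genes, 9.82% of pairs were higher and 19.2% lower, so both counts lie above these shares but rest on few pairs. PRRX1 had 60 of its 67 UMIs in the S100A9 line and passed the minimum only through that line. It was called higher there and lower in the A549-like, SLC30A8 and HCC827-like lines, so these pairs follow in part from the minimum. The SLC30A8 line had 2 members higher and 2 lower (all genes 12.9% and 21.3%), the DHRS2 line 2 and 1 (7.21% and 16.5%), the S100A9 line 1 and 1 (10.0% and 19.9%), the A549-like line 0 and 3 (12.0% and 17.5%), and the HCC827-like line 0 and 4 (6.92% and 20.7%). The members' median log2 ratio in the HCC827-like line was -1.66, against -0.348 for all genes. After thinning, 69.0% of HCC827-like barcodes (62.8% to 74.7%) held a UMI of none of the 7 factors, against 6.65% of SLC30A8 barcodes, 22.6% of A549-like, 27.2% of DHRS2 and 37.1% of S100A9 barcodes. Of 391 SLC30A8 barcodes, 50 held UMIs of 3 factors and 1 of 4 or more, against 1 of 245 HCC827-like barcodes with 3.

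**Figure D2:**
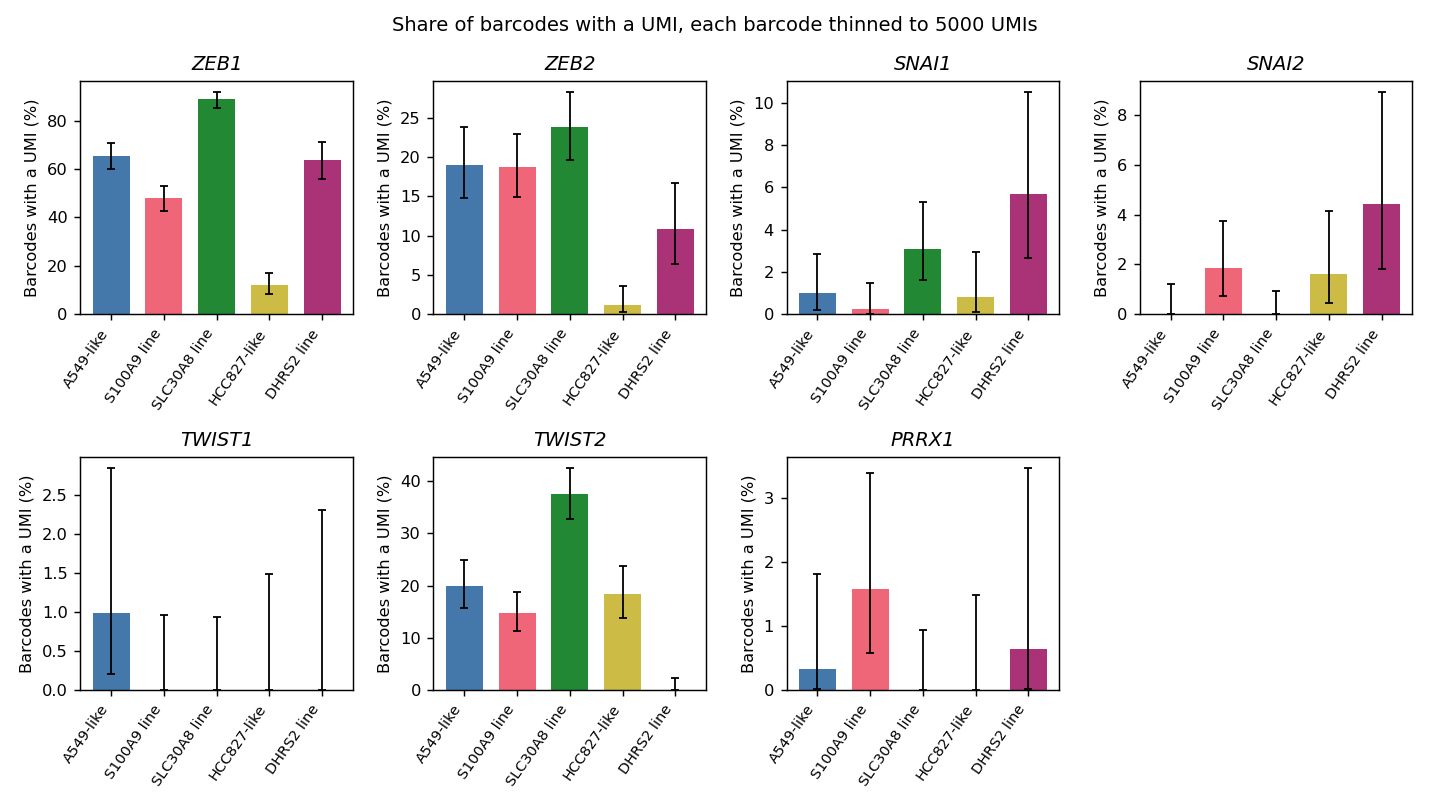
Share of barcodes (%) with a UMI of each factor after thinning each barcode to 5000 UMIs; lines are 95% exact binomial intervals. ZEB1 was seen in 89.0% of SLC30A8 and 12.2% of HCC827-like barcodes, and TWIST2 in 0% of DHRS2 barcodes.

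The levels were then split by each barcode's mitochondrial share, a split chosen after the values were seen. ZEB1 had 609 CPM in SLC30A8 barcodes under 2% and 469.5 CPM in those at or above 2%, and 63.4 and 36.3 CPM in HCC827-like barcodes. Within either side of the split, the SLC30A8 line was highest and the HCC827-like line lowest. ZEB1 in the DHRS2 line had 328.5 CPM (280 to 383) under 2% and 186 CPM at or above 2%, so under 2% it stood above the A549-like line (275.5 CPM, 257 to 295), with overlapping intervals. TWIST2 in the S100A9 line had 9.99 CPM (1.21 to 36.1, from 2 UMIs) under 2% and 34.7 CPM (30.7 to 39.1) at or above 2%, with overlapping intervals. Under 2% it counted as 2-fold lower there (log2 ratio -2.43), on those 2 UMIs. ZEB2 behaved otherwise: in the S100A9 line it had 169.9 CPM (118 to 237) in 27 barcodes under 2%, against 48.9 CPM in the 357 at or above 2%, so under 2% the S100A9 line and not the SLC30A8 line (78.8 CPM) was highest. The part of RNA quality in these levels was not tested.

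**Figure D3:**
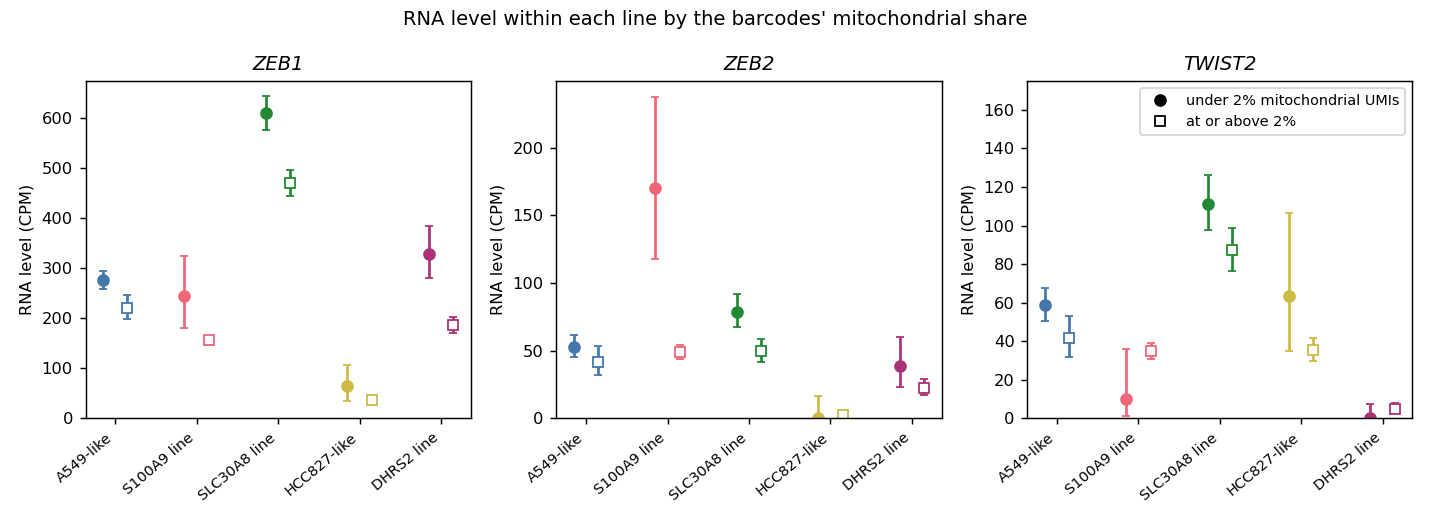
RNA level in CPM of ZEB1, ZEB2 and TWIST2 in each line, in barcodes under 2% mitochondrial UMIs (filled circles) and at or above 2% (open squares), with 95% counting intervals. ZEB1 was highest in the SLC30A8 line on both sides, at 609 and 469.5 CPM.

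Accessibility was read in the 13 peaks in or near the spans of the starts, of which 10 had at least 100 counts. The ZEB2 span (chr2:144430934-144520398) is long, so a peak inside it need not lie near a start. Coordinates are on GRCh38, and peak intervals were computed on counts divided by 2 because a fragment usually adds 2. A peak's level was also compared with its region, the peaks within 1000000 bases of the gene less those within 2000. Of the 50 pairs of a measured peak and a line, 5 were at least 2-fold higher and 12 at least 2-fold lower (all 93983 measured peaks 10.9% and 21.6%), close to those background shares. By line, higher and lower counts were 3 and 2 in the S100A9 line (all peaks 14.9% and 14.0%), 2 and 0 in the A549-like line (9.52% and 30.6%), 0 and 4 in the SLC30A8 line (8.63% and 28.1%), 0 and 4 in the DHRS2 line (11.6% and 15.6%) and 0 and 2 in the HCC827-like line (9.84% and 19.9%).

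The TWIST2 start peak was lowest in the line with the lowest TWIST2 RNA, and the TWIST1 and PRRX1 peaks were highest in the lines with the highest RNA. The TWIST2 start peak was not highest in the SLC30A8 line, where the RNA was. The TWIST2 peak over the start (chr2:238847625-238848485) had 1.47 CPM (0.478 to 3.43) in the DHRS2 line, against 14.6 CPM in the A549-like, 21.0 CPM in the SLC30A8, 21.2 CPM in the HCC827-like and 24.5 CPM in the S100A9 line. The region was close in all lines, with 1022 CPM in the DHRS2 line against a mean of 1166 CPM. Less the region, the DHRS2 log2 ratio was -2.92. With accessibility clusters as lines the ratio was -0.98, in place of -3.11. A further TWIST2 peak (chr2:238849172-238849932) had 0.589 CPM in the DHRS2 line and 0.396 CPM in the HCC827-like line, against 2.33 to 5.54 CPM in the others. The TWIST1 peak (chr7:19116941-19117840) had 7.53 CPM (5.96 to 9.38) in the A549-like line, 3.56 CPM in the HCC827-like line and at most 0.294 CPM in the others. In barcodes under 2% mitochondrial UMIs it was highest in the HCC827-like line (8.79 CPM, against 7.71 CPM in the A549-like line). That rests on 38 HCC827-like barcodes, and the whole line had 18 counts in this peak, from 7 barcodes. The PRRX1 peak (chr1:170664382-170665143), which begins 251 bases after the last annotated start, had 12.7 CPM (10.6 to 15.2) in the S100A9 line and 1.08 to 3.81 CPM elsewhere. That is 1.87 log2 units above the mean of the other lines, and 1.28 less the region.

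At ZEB1, ZEB2, SNAI1 and SNAI2 the line with the highest RNA did not have the highest CPM of any measured peak. At ZEB1 its peak interval overlapped that of the highest, and at ZEB2 and SNAI2 the RNA intervals of the highest lines overlapped. The ZEB1 peak over the start (chr10:31318762-31319642) had 43.9 CPM (39.95 to 48.1) in the A549-like line, 39.2 CPM (33.9 to 45.0) in the SLC30A8 line, 26.3 CPM (20.4 to 33.4) in the HCC827-like line, 23.3 CPM in the DHRS2 line and 20.6 CPM in the S100A9 line, so it was open in the HCC827-like line where ZEB1 RNA was lowest. The ZEB2 peak over a start (chr2:144519768-144520650) had 4.48 CPM in the A549-like line and 0.294 CPM in the DHRS2 line. A neighbouring ZEB2 peak (chr2:144517109-144517757) had 15.8 CPM in the S100A9 line, 13.6 CPM in the SLC30A8 line and 6.18 to 8.34 CPM in the others. Less the region, its log2 ratio was 0.82 in the SLC30A8 line and 0.19 in the S100A9 line. On that scale this peak was highest in the line with the highest ZEB2 RNA. An inner ZEB2 peak (chr2:144456356-144457260) had 10.9 CPM (8.90 to 13.2) in the S100A9 line and 1.38 to 3.62 CPM elsewhere. The SNAI1 peak (chr20:49982357-49983246) had 70.2 CPM (63.1 to 77.9) in the SLC30A8 line, where its region was also high at 4918 CPM against a mean of 2334 CPM, and the log2 ratio less the region was -0.14. The SNAI2 peak (chr8:48921351-48922180) had 8.47 CPM (6.13 to 11.4) in the SLC30A8 line, where SNAI2 had 0 UMIs, 11.8 CPM in the A549-like line, 18.0 CPM in the HCC827-like line, 20.6 CPM in the DHRS2 line and 28.4 CPM in the S100A9 line. The 3 lines with the highest SNAI2 RNA also had the highest peak level. The region itself was high in the DHRS2 line (569 CPM) and the S100A9 line (455 CPM), against 271 to 313 CPM elsewhere. Less the region, the log2 ratio was -0.48 in the DHRS2 line, under that of the A549-like line (-0.047), so the order did not hold. It was 0.58 in the S100A9 line, 0.40 in the HCC827-like line and -0.69 in the SLC30A8 line. The other 3 peaks, 1 at ZEB1 and 2 at ZEB2, had under 100 counts and at most 2.46 CPM in any line. The farthest peak inside the window lay 1331 bases from ZEB1 (0 to 1.18 CPM), and the nearest outside lay 2272 bases from SNAI2 (0.441 to 1.58 CPM).

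**Figure D4:**
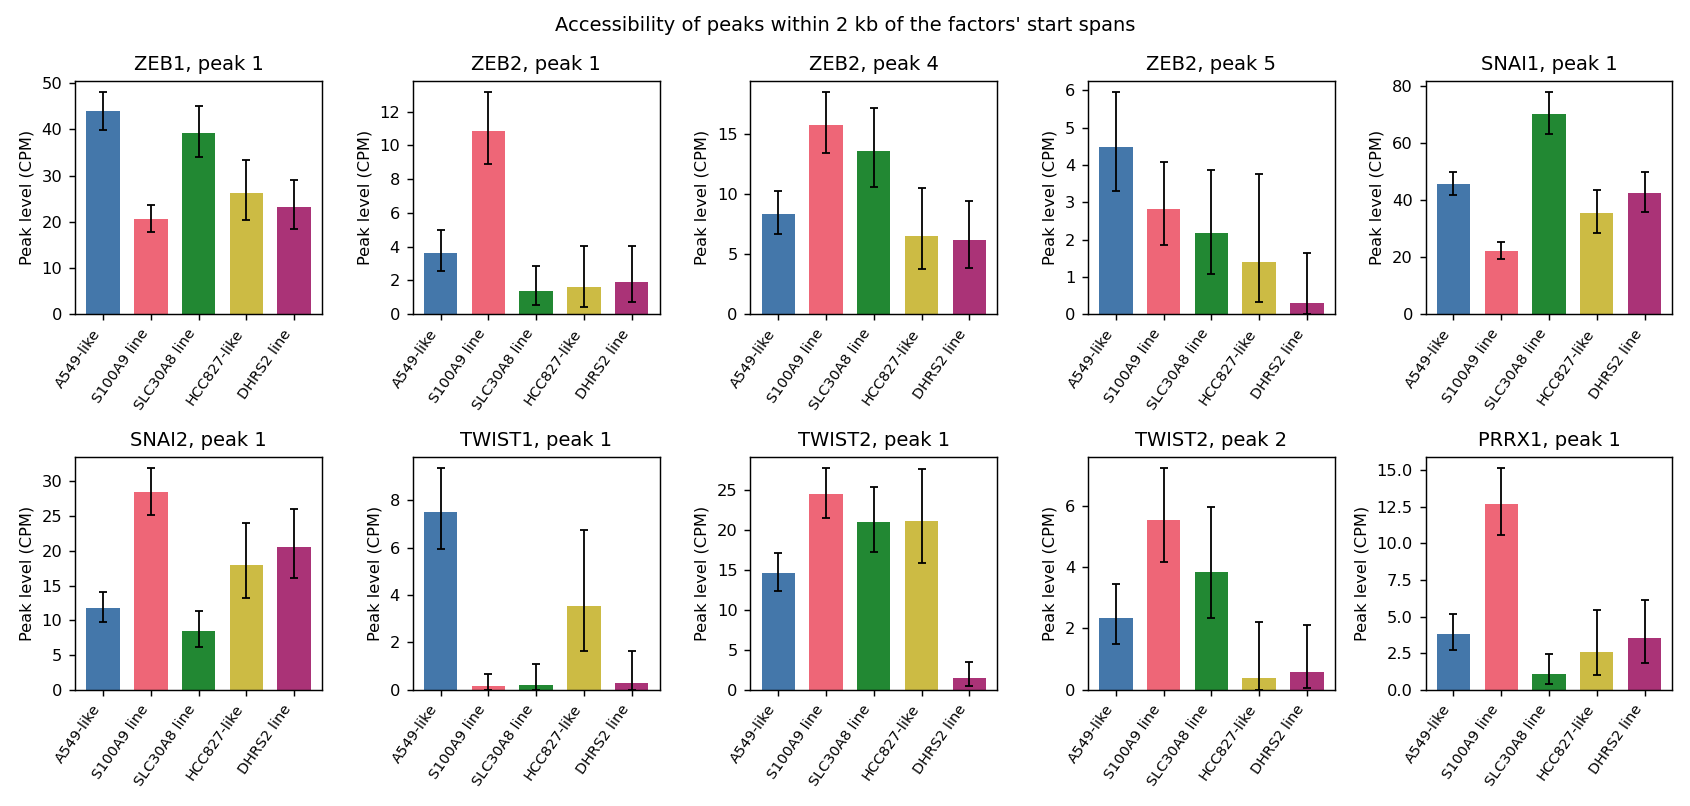
Peak level in CPM of the 10 measured peaks in or near the spans of the factors' starts in the 5 lines. Error lines are 95% intervals on counts divided by 2. TWIST2 peak 1, over the start, has 1.47 CPM in the DHRS2 line, and the PRRX1 peak has 12.7 CPM in the S100A9 line.

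Of the 24 epithelial genes that these factors are known to repress, 17 had their highest level in the HCC827-like line, the line with the least ZEB1 and ZEB2, 4 in the S100A9 line, 2 in the DHRS2 line and 1 in the A549-like line. All were measured, and 16 were at least 2-fold higher and 0 lower in the HCC827-like line (all genes 6.92% and 20.7%; median log2 ratio 1.91, against -0.348 for all genes), and 0 were higher and 22 lower in the SLC30A8 line (all genes 12.9% and 21.3%; median -2.52, against -0.0472). The A549-like line had 1 higher and 16 lower (all genes 12.0% and 17.5%). The S100A9 line had 3 and 2 (10.0% and 19.9%), and the DHRS2 line 2 and 4 (7.21% and 16.5%). CDH1, the gene for E-cadherin, had 345 CPM in the HCC827-like line and 13.5 CPM in the SLC30A8 line, and the tight junction gene CLDN4 had 189 and 2.82 CPM. SPINT1, a protease inhibitor, had its highest level of 207 CPM in the S100A9 line. MIR200CHG had 25 UMIs (5.97 CPM) in the HCC827-like line, 15 (1.88 CPM) in the S100A9 line, 2 in the DHRS2 line and 0 in the A549-like and SLC30A8 lines. The peak over its start (chr12:6962866-6963634) had 43.3 CPM (35.6 to 52.2) in the HCC827-like line, 11.2 CPM in the DHRS2 line, 10.0 CPM in the S100A9 line, 2.86 CPM in the SLC30A8 line and 2.72 CPM in the A549-like line. The CRB3 peak (chr19:6463853-6464756) had 19.6 CPM in the HCC827-like line, 10.2 CPM in the A549-like line and 9.39 CPM in the S100A9 line. It had 5.30 CPM in the DHRS2 line and 3.25 CPM in the SLC30A8 line. CRB3 RNA was as high in the S100A9 line (10.0 CPM, 80 UMIs) as in the HCC827-like line (10.3 CPM, 43 UMIs). It had 3.055 CPM in the DHRS2 line, 1.74 CPM in the A549-like line and 0.201 CPM (1 UMI) in the SLC30A8 line.

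Of the 14 measured of 18 epithelial regulators, which hold the epithelial state in place, 9 had their lowest level in the SLC30A8 line. There, 12 were at least 2-fold lower and 0 higher (all genes 21.3% and 12.9%; median -3.14), and 5 were higher and 3 lower in the HCC827-like line (6.92% and 20.7%). KLF5, a Krüppel-like factor, had 164 CPM in the SLC30A8 line and was not lower there, nor was OVOL2, a zinc finger repressor, at 28.0 CPM. ESRP1, a splicing regulator, had 222 CPM in the HCC827-like line and 1.41 CPM in the SLC30A8 line, and ELF3, an ETS factor, had 252 CPM in the A549-like line and 2.62 CPM in the SLC30A8 line. TP63, a p53 family factor, had 226 CPM in the A549-like line and 0.604 CPM in the SLC30A8 line, and EHF, another ETS factor, had 182 CPM in the S100A9 line and 1.21 CPM in the SLC30A8 line.

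Mesenchymal genes did not rank the lines as ZEB1 did. Of 22 measured of 24, 12 were at least 2-fold higher and 4 lower in the DHRS2 line (all genes 7.21% and 16.5%). Higher and lower counts were 7 and 5 in the S100A9 line (10.0% and 19.9%) and 3 and 14 in the A549-like line (12.0% and 17.5%). They were 2 and 13 in the SLC30A8 line (12.9% and 21.3%) and 1 and 19 in the HCC827-like line (6.92% and 20.7%). The list's median was 1.25 in the DHRS2 line, -1.58 in the SLC30A8 line and -2.36 in the HCC827-like line. CDH11, a cadherin of mesenchymal cells, had 720 CPM in the S100A9 line and at most 78.8 CPM elsewhere. CDH2, the gene for N-cadherin, had 106 CPM in the A549-like line and at most 5.44 CPM elsewhere. The collagen gene COL5A1 had 437 CPM in the DHRS2 line and at most 124 CPM elsewhere. Markers of other cells stood at low summed levels in most lines. The 8 fibroblast genes summed to 64.1 CPM in the S100A9 line and 5.01 to 27.2 CPM elsewhere, the 10 immune genes to 5.23 to 19.3 CPM, and the 6 endothelial genes to 101 CPM in the S100A9 line and 3.70 to 22.9 CPM elsewhere. Among fibroblast genes DCN had 0 UMIs in every line, COL3A1 and C7 0 to 5 UMIs, LUM at most 15 and PDGFRA at most 2, but FAP reached 44.3 CPM and COL6A3 19.3 CPM in the S100A9 line. Of endothelial genes, PECAM1 had 99.3 CPM in the S100A9 line while CDH5 had at most 3 UMIs in any line. Of immune genes, PTPRC had 52 UMIs (6.51 CPM) in the S100A9 line. The part of other cells in the members' levels was not tested.

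**Figure D5:**
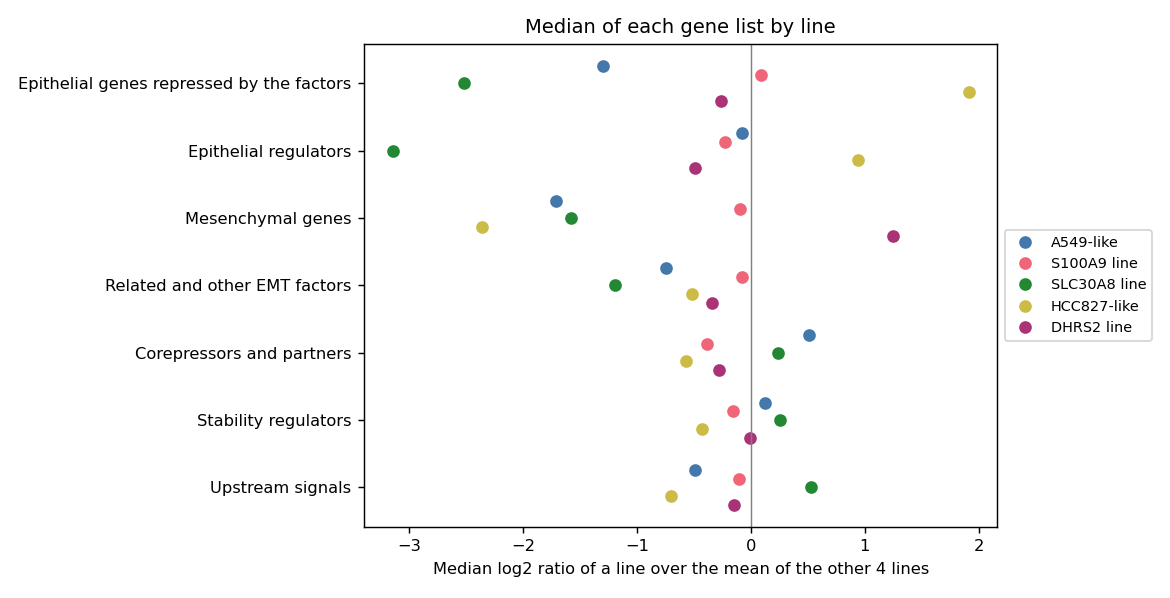
Median log2 ratio of each gene list in each line over the mean of the other 4 lines (points, coloured by line). The repressed epithelial genes lie at 1.91 in the HCC827-like line and -2.52 in the SLC30A8 line, and the mesenchymal genes at 1.25 in the DHRS2 line.

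Among genes that act with or on the factors, medians lay closer to 0. Of 16 measured of 22 related and other EMT factors, 8 were at least 2-fold lower in the SLC30A8 line (all genes 21.3%; median -1.19). TCF4, a helix-loop-helix E protein, had 115 CPM in the SLC30A8 line and 0.716 CPM in the HCC827-like line, while HMGA2, a chromatin protein, had 1.81 CPM in the SLC30A8 line and 121 to 560 CPM elsewhere. PRRX2, the paralogue of PRRX1, had 39.2 CPM in the S100A9 line and 38.2 CPM in the SLC30A8 line. Of 24 corepressors and partners, 5 were higher and 1 lower in the A549-like line (all genes 12.0% and 17.5%) and 0 and 7 in the S100A9 line (10.0% and 19.9%), with ID3, an inhibitor of helix-loop-helix factors, at 280 CPM in the SLC30A8 line. Of 18 measured stability regulators, at most 3 were higher and at most 1 lower in any line (all genes 6.92% to 12.9% and 16.5% to 21.3%). Among them PRKD1, a kinase, had 3.10 CPM in the HCC827-like line and 87.3 to 192 CPM elsewhere. Of 25 measured upstream signals, 7 were higher and 9 lower in the SLC30A8 line (12.9% and 21.3%), where WNT5A, a Wnt ligand, had 77.5 CPM against at most 4.51 CPM elsewhere. HGF, a ligand of MET, had 46.3 CPM in the HCC827-like line. ZEB1-AS1, which is antisense to ZEB1 and cannot be told apart from it unless counting used strand, had 3.82 CPM in the SLC30A8 line and 9.77 CPM in the S100A9 line. ZEB2-AS1 had 0 UMIs in all lines.

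By the distance of log2(CPM + 1) over the 5 lines, among 14201 candidate genes, ZEB1 lay nearest to LARP4B, CAMK1D and PHF21A (distances 1.02, 1.14 and 1.46) and ZEB2 to C1orf21, APH1B and STK33 (0.824, 1.06 and 1.20). TWIST2 lay nearest to AP003086.1, MICU3 and DENND3, SNAI1 to AL512603.2, ARTN and DNAJA4, SNAI2 to AC004594.1, ZNF468 and PCDHGA1, and PRRX1 to BX640514.2, AC003005.2 and DOK5. These are descriptions over 5 values with no test.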

How the data were processed

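RNA and chromatin accessibility were measured in the same barcodes of a mixture of 5 human lung adenocarcinoma lines, with 1 library of each kind. The deposited joint matrix holds whole-number counts per gene (UMIs) and per peak, with no normalization, which the authors made with GRCh38 and Cell Ranger ARC (2.0.0), both named in the submitters' processing notes; whether counting used strand is not given in the sources used here. Barcodes needed at least 1000 UMIs, 500 genes and 1000 peak counts and at most 20% mitochondrial UMIs, and the 63 highest Scrublet scores were removed (0.8% per 1000 barcodes). A barcode was assigned to a line whose marker genes held at least 3 UMIs and 80% of all marker UMIs. UMIs and peak counts were summed per line and scaled to CPM. Log2 ratios used a pseudocount of 1 against the mean of the other 4 lines, and 2-fold was called where genes had at least 20 UMIs and peaks at least 100 counts. Summed levels have exact Poisson intervals and shares have Clopper-Pearson intervals (both 95%, counting error only), and a count of 0 was taken to allow 3. The ratios and the assignment were tested on simulated data. Scanpy 1.11.5 and edgeR 4.0.16 (TMM only) were used. Named genes are all members, their 3 nearest genes, and from each list genes among those with the largest range over the lines (some are not reported here); KLF5, OVOL2, CDH1 and CRB3, the peaks of CRB3 and MIR200CHG, and the other cell type markers, were named after their values were seen. The members and lists were chosen with earlier results of these data known.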

Additional observations from a re-analysis of the deposited data

How the results depend on the processing

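With a single library and culture per line, depth limits counting error only. Of 5 member and line pairs 2-fold higher, 2 were left against the nearest other line and 2 at 4-fold; the count of 11 lower was 6 under 2% mitochondrial UMIs, 3 against the nearest line and 4 at 4-fold. The count of 6 holds 5 of the 11 and TWIST2 in the S100A9 line, which rests on 2 UMIs there. SNAI2 and PRRX1 had under 20 UMIs in barcodes under 2% and could not be called there. Their log2 ratios were still -1.64 and -1.22 in the SLC30A8 line, and -1.22 for PRRX1 in the HCC827-like line. In the A549-like line they were -1.19 for SNAI2 and -0.76 for PRRX1. SNAI1 kept at least 20 UMIs over the lines together, and in the HCC827-like line it went to -0.31. That value rests on 1 UMI in 38 barcodes (4.53 CPM, 0.115 to 25.2). For list genes, 106 pairs higher became 49 and 44, and 213 lower became 34 and 117, against the nearest line and at 4-fold. For peaks, 5 pairs higher became 3 at a marker share of 50%, 1 at 4-fold and 9 within 10 kb; 12 lower became 7 under 2% mitochondrial UMIs, 7 at or above it, 1 at 4-fold and 20 within 10 kb. On both sides of the mitochondrial split some lower calls were lost to the minimum of 100 counts while the ratio stayed past 2-fold. Under 2%, the further TWIST2 peak in the HCC827-like line had -2.10 in place of -1.55. The SNAI1 peak in the S100A9 line did shrink, from -1.10 to -0.73. Less the region, the TWIST1 peak in the SLC30A8 line was 0.46 in place of -1.70, and 2 counts lie behind it. SNAI2 was highest in the S100A9 line at a 95% marker share (4.88 CPM, against 4.54 CPM in the DHRS2 line). Its higher call in the DHRS2 line was lost at that setting (log2 ratio 0.81). Scaling by TMM moved the median log2 ratio by up to 0.182 for genes and 0.274 for peaks and left the member counts at 5 and 11. No paired analysis was possible because each kind of library exists only once and no comparison comes from a test.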
